A study of Mus musculus with 6 samples.

Results

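The collagen genes of the mouse were taken as the protein-coding genes whose symbol has the form Col, a type number, the letter a and a chain number. There were 44 of them among the 54532 genes of the deposited table. They fell into 11 fibrillar chains, 6 chains of type IV, the collagen of basement membranes, and 27 chains of other types. Collagens are secreted proteins of long chains wound into a helix, and each type is built from its own set of chains. Fibrillar collagens form the rope-like fibres of the tissue, type IV forms the sheet-like network under epithelia and around vessels, and type VI forms beaded filaments around cells. In tumours most collagen is laid down by fibroblasts, and tumour cells and vessels add basement membrane chains.

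Poly-A RNA was sequenced from MC38 tumours, grown from a mouse colon cancer line placed under the skin of wild-type C57BL/6 mice, in 3 libraries labelled Npm1 knockout and 3 labelled wild type. The knockout was made with CRISPR/Cas9 and is given as the genotype of the sample, and the host mice of both groups were wild type. Both groups were depleted of CD45-positive leukocytes with microbeads before RNA extraction. The sources used here do not say whether the knockout is a single clone, how old the mice were, or whether the replicates came from separate animals. The p-values therefore measure only the spread between these libraries, which may be technical. What remains after the depletion can hold host fibroblasts and vessel cells beside tumour cells, and in such bulk RNA fewer cells of a type and less RNA per cell cannot be told apart.

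The libraries held 17333843 to 18662688 fragments in the knockout group and 16917778 to 18255574 in the wild-type group, and collagen genes took 1.93 to 2.46% of them in knockout and 1.90 to 2.66% in wild-type libraries. Npm1, which encodes the nucleolar chaperone nucleophosmin, stood at 191, 159 and 128 FPKM (fragments scaled to gene length and library size) in the knockout libraries, against 234, 169 and 195 FPKM in wild-type ones. Its groups overlapped, and the log2 difference of -0.33 (SE 0.197) did not pass (limma adjusted p = 0.268). The exact two-sided permutation p was 0.2, where 3 against 3 libraries allow no p below 0.1. With a smooth trend over transcript length and GC content removed from each library, the difference was -0.76 and passed (limma adjusted p = 0.0445). With that trend removed 1.37% of all genes fell. Fibroblast markers other than collagens had a summed level of 1617 to 3036 FPKM in knockout and 1555 to 1966 FPKM in wild-type libraries. Most of that sum was Gsn, at 1065 to 2151 FPKM in knockout and 1087 to 1449 FPKM in wild-type libraries. The median level over the list was 11.3 FPKM. The epithelial markers that define colon cells, the labelled cell type, were close to absent, with a summed level of 1.59 to 2.37 FPKM over 9 genes in knockout and 2.20 to 2.76 FPKM in wild-type libraries. Epcam, an epithelial adhesion protein, averaged 0.00895 FPKM in knockout libraries and was listed at 0 in all wild-type libraries. The single epithelial marker that was tested, Lgals4, did not pass (log2 change -0.22, limma adjusted p = 0.412).

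Some sequence at the starts of fibrillar and type IV genes is shown as background, and its relation to their levels was not tested. The 250 bases upstream of the RefSeq start are shown for Col3a1, the most abundant collagen gene of these libraries, and for Col1a2, a chain of type I collagen with a far lower level, because the pair differed widely in base composition. The stretch for Col3a1 (GRCm38.p6, chr1:45311288-45311537, plus strand) had a GC content of 35.2% and that for Col1a2 (chr6:4505368-4505617, plus strand) 62.0%, where the median of all 32851 such windows was 52.4%. The third sequence is the stretch shared by the starts of Col4a1 and Col4a2 (chr8:11312805-11312826, plus strand), which encode the α1 and α2 chains of type IV collagen and lie head to head. Their annotated spans overlapped by 22 bases. Capitals mark motif matches, sought on both strands. The motif CCAAT is known as the box of the same name. The motif TATAAA is a core promoter element near the start of some genes. The motif GGGCGG is bound by factors of the Sp family.
Col3a1: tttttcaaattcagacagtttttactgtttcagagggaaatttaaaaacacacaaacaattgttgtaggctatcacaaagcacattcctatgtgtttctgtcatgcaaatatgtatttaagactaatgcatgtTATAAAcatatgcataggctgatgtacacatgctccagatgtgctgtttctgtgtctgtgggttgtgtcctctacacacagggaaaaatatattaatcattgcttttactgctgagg
Col1a2: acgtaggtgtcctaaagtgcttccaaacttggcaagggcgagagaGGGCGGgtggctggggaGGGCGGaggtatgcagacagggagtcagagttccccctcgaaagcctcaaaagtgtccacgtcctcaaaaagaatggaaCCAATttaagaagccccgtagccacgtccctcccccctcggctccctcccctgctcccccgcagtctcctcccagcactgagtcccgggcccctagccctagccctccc
Col4a1 and Col4a2, shared stretch: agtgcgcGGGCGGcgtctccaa

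Promoter windows were found for 35 of the 44 collagen genes. Among the 18 windows of the 16 genes that were also tested, 8 held the motif CCAAT, against 33.8% of all windows. The motif TATAAA was in 1 of them, that of Col3a1, against 12.4% of all windows, and the motif GGGCGG in 12 of them, against 32.7%. In Col3a1 the TATAAA match lay near the middle of the printed stretch, not next to the start. A match is a description of letters only.

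Of the 44 collagen genes, 19 reached an average of 1 FPKM across the 6 libraries and were tested with the other genes, and 25 lay below that level. In the knockout libraries 0 collagen genes rose and 4 fell, namely Col1a1, Col18a1, Col6a3 and Col4a2, and 15 did not pass (limma adjusted p under 0.05 over 11287 genes). Of all tested genes 8.3% fell and 5.91% rose, that is 937 and 667 genes (710 and 251 after rescaling to TPM). Of the 3211 other protein-coding genes with a gene length of 3853 to 13022 bases and a GC content of 46.8 to 61.6%, the ranges of the tested collagen genes, 20.5% fell, a share close to that of the collagen genes. The groups did not overlap for 8 collagen genes that were lower and 1 that was higher, where 19.6% of all tested genes were lower and 16.0% higher in this way. That share was not taken among the 3211 genes within the length and GC ranges, so it is not known how far the 8 differ from them. The median log2 change of the tested collagen genes was -0.23, against 0.024 for all tested genes and -0.28 for the 3211 genes of like length and GC content. When a smooth trend with transcript length and GC content was taken out of each library, 0 collagen genes fell and 3 rose, namely Col27a1, Col5a3 and Col16a1. With that trend removed 1.37% of all genes fell and 1.03% rose, and the collagen median was 0.30.

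**Figure D1:**
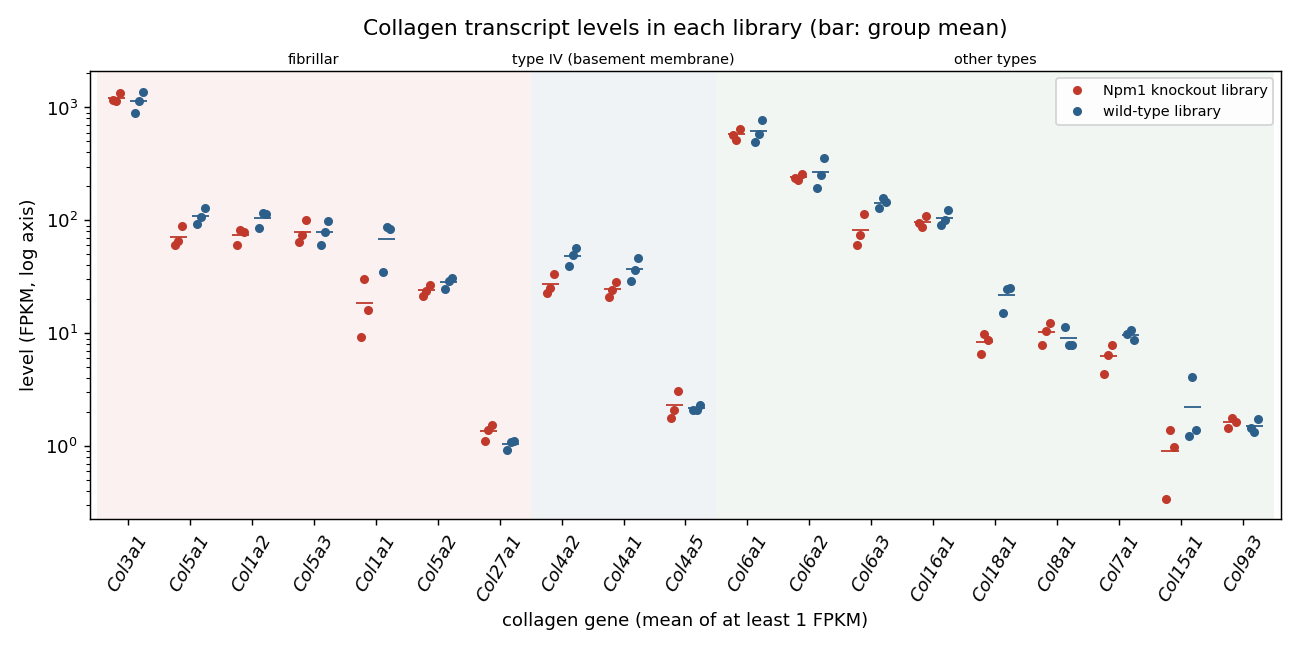
Levels of the 19 tested collagen genes in FPKM on a log axis, with 1 point per library, the 3 Npm1 knockout libraries left of the 3 wild-type libraries for each gene, and a bar at each group mean. Col3a1 stands highest at 1149 to 1335 FPKM in knockout and 895 to 1383 FPKM in wild-type libraries, and the points of Col1a1, Col18a1, Col6a3 and Col4a2 lie lower in every knockout library than in any wild-type library.

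The fibrillar group is treated first. Of its 11 chains 7 were tested, 0 rose and 1 fell, with a median log2 change of -0.23 (0.22 with the length and GC trend removed). Col1a1 (ENSMUSG00000001506, GRCm38 chromosome 11, 94936224 to 94953042, plus strand), the α1 chain that supplies most of each type I molecule, had 9.35, 30.3 and 16.1 FPKM in the knockout libraries and 35.2, 88.1 and 83.9 FPKM in the wild-type libraries. The highest knockout library lay just under the lowest wild-type library, and each group had 1 library far from the other 2. The means were 18.6 ± 10.7 FPKM in knockout and 69.1 ± 29.4 FPKM in wild-type libraries (SD, n = 3 each), a ratio of 0.269. Col1a1 fell by 1.88 on the log2 scale (SE 0.415, limma adjusted p = 0.0228), the lowest value of the 19 genes. After removal of the length and GC trend the change was -1.17 (SE 0.423, 95% interval -2.15 to -0.19) and did not pass (limma adjusted p = 0.139).

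Col1a2, the α2 partner chain of type I collagen, had 60.6, 81.7 and 79.7 FPKM in knockout and 84.8, 115.8 and 115.1 FPKM in wild-type libraries. Every knockout library lay below every wild-type library, by a small gap. The log2 change of -0.50 (95% interval -0.91 to -0.089) did not pass (limma adjusted p = 0.0929), and it was 0.015 once the trend was removed. The gene length of Col1a2 in the deposited table, 12426 bases, is 2.32 times its longest transcript of 5348 bases, so its FPKM understates the level per base of transcript. Per kilobase of the longest transcript Col1a2 averaged 172 in knockout and 245 in wild-type libraries, and Col1a1 20.5 in knockout and 76.4 in wild-type libraries.

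The log2 ratio of Col1a1 to Col1a2 FPKM within a library was -2.70, -1.43 and -2.31 in knockout and -1.27, -0.39 and -0.46 in wild-type libraries. The ratio was lower in every knockout library than in any wild-type library, and the mean difference was -1.44. With 3 libraries a group this gave the smallest p possible, an exact two-sided permutation p of 0.1, which was 0.1 also after adjustment over the 3 chain ratios tested. The mean difference was -1.18 once the length and GC trend was removed (exact p = 0.2).

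Col3a1, the single chain of type III collagen, a fibril former of skin, vessels and loose stroma, had 1156, 1149 and 1335 FPKM in knockout and 895, 1152 and 1383 FPKM in wild-type libraries. The knockout values lay inside the wild-type range. The log2 change of 0.11 (95% interval -0.40 to 0.61) did not pass (limma adjusted p = 0.765), and it turned to -0.0092 after rescaling to TPM. Col3a1 made up 48.0, 47.5 and 46.5% of the summed collagen FPKM in knockout and 40.3, 41.0 and 40.7% in wild-type libraries. These shares did not overlap, while the type I share was 2.90, 4.62 and 3.33% in knockout and 5.41, 7.27 and 5.86% in wild-type libraries and did not overlap either. The summed collagen level itself was 2567 ± 265 FPKM in knockout and 2807 ± 589 FPKM in wild-type libraries (SD, n = 3 each), less apart than the spread of the wild-type libraries. Without Col3a1 the fibrillar chains summed to 269.7 ± 48.6 FPKM in knockout and 394 ± 83.5 FPKM in wild-type libraries.

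Type V chains join type I fibrils and limit their width. Col5a1, the α1 chain, had 60.5, 66.2 and 88.6 FPKM in knockout and 92.9, 108 and 129 FPKM in wild-type libraries. All knockout libraries lay below all wild-type libraries, and the log2 change of -0.62 (95% interval -1.04 to -0.19) did not pass (limma adjusted p = 0.0567). It was 0.22 with the trend removed. Col5a2, the α2 chain, had 21.5, 23.6 and 26.9 FPKM in knockout and 24.8, 29.1 and 31.0 FPKM in wild-type libraries, with overlapping groups and a log2 change of -0.23 (95% interval -0.57 to 0.11, limma adjusted p = 0.315). Col5a3, the less common α3 chain, had 64.0, 73.6 and 101 FPKM in knockout and 60.6, 78.4 and 99.3 FPKM in wild-type libraries, and its groups lay over each other at a log2 change of 0.0016 (95% interval -0.49 to 0.49). Col5a3 passed in the other direction once the trend was removed (0.86, limma adjusted p = 0.0444).

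The log2 ratio of Col5a1 to Col5a2 was 1.49, 1.49 and 1.72 in knockout and 1.91, 1.89 and 2.06 in wild-type libraries. The groups did not overlap (mean difference -0.39, exact two-sided permutation p = 0.1), and with the trend removed the difference was 0.07. Against Col3a1, the log2 level of Col1a1 was lower by 2.05 in the knockout mean, with ratios of -6.95, -5.25 and -6.38 in knockout and -4.67, -3.71 and -4.04 in wild-type libraries. The ratio of Col5a3 to Col5a1 ran the other way, at 0.081, 0.15 and 0.18 in knockout and -0.62, -0.46 and -0.38 in wild-type libraries. Both of these ratios were chosen after their values were seen and have no test.

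Col27a1, a fibrillar chain known from cartilage, was the least abundant tested collagen gene at 1.12, 1.39 and 1.56 FPKM in knockout and 0.930, 1.08 and 1.11 FPKM in wild-type libraries. It was the only tested collagen gene higher in all knockout libraries, and its log2 change of 0.20 (95% interval -0.14 to 0.55) did not pass (limma adjusted p = 0.378). With the trend removed the change was 1.07 and passed (limma adjusted p = 0.0305). Its gene length of 13022 bases was the greatest among the tested collagen genes, and its GC content was 59.4%. At levels near 1 FPKM, log2(FPKM + 1) understates a change, while the trend fitted over all genes was subtracted in full. Of the 4 fibrillar chains below the filter, Col11a2, a cartilage chain, had 0.556 to 0.729 FPKM in knockout and 0.535 to 1.23 FPKM in wild-type libraries. Col2a1, the main cartilage collagen, had 0 to 4 fragments per knockout library and 11 to 38 per wild-type library. Col11a1, the partner of Col11a2, and Col24a1, a minor fibrillar chain, stayed at no more than 4 fragments in any library.

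Type IV collagen is the scaffold of basement membranes, and its common form combines the α1 and α2 chains. Of the 6 type IV chains 3 were tested, 0 rose and 1 fell, with a median log2 change of -0.56 (0.15 with that trend removed). Col4a2 (ENSMUSG00000031503, chromosome 8, 11312805 to 11449287, plus strand) had 22.8, 25.2 and 33.6 FPKM in knockout and 39.6, 49.4 and 57.4 FPKM in wild-type libraries. The groups were apart, with means of 27.2 ± 5.67 FPKM in knockout and 48.8 ± 8.90 FPKM in wild-type libraries (SD, n = 3 each). Col4a2 fell by 0.83 on the log2 scale (SE 0.190, limma adjusted p = 0.0251), and was at 0.010 with the length and GC trend removed, where it did not pass.

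Col4a1, its head-to-head neighbour, had 21.0, 24.1 and 28.5 FPKM in knockout and 28.9, 36.2 and 46.4 FPKM in wild-type libraries. The groups did not overlap, though the highest knockout and the lowest wild-type library were close. The log2 change of -0.56 (95% interval -0.99 to -0.14) did not pass (limma adjusted p = 0.0738) and was 0.15 with the trend removed. The strand setting of the counting is not given in the sources used here, and fragments in the 22 bases printed above could go to either gene. Within libraries, the log2 ratio of Col4a1 to Col4a2 was -0.12, -0.063 and -0.24 in knockout and -0.46, -0.45 and -0.31 in wild-type libraries. It was higher in all knockout libraries (mean difference 0.27, exact two-sided permutation p = 0.1), and with the trend removed the mean difference was 0.14 (exact p = 0.2).

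Col4a5, the α5 chain of kidney and smooth muscle basement membranes, had 1.77, 2.08 and 3.06 FPKM in knockout and 2.09, 2.09 and 2.35 FPKM in wild-type libraries. Its groups overlapped, and the log2 change was 0.038 (95% interval -0.35 to 0.43, limma adjusted p = 0.895). Col4a3 and Col4a4, its partner chains in the kidney, and Col4a6 had at most 4 fragments in any library. The type IV chains together summed to 54.0 ± 10.1 FPKM in knockout and 88.2 ± 17.8 FPKM in wild-type libraries (SD, n = 3 each). Their share of the summed collagen level was 1.89, 2.12 and 2.27% in knockout and 3.19, 3.13 and 3.13% in wild-type libraries, and the knockout shares were all lower.

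The remaining 27 chains belong to several families, of which 9 were tested, 0 rose and 2 fell, with a median log2 change of -0.098 (0.32 with that trend removed). Type VI collagen joins an α1, an α2 and a longer chain such as α3 into filaments around cells. Col6a1, the α1 chain, had 570, 519 and 641 FPKM in knockout and 498, 581 and 775 FPKM in wild-type libraries, and Col6a2, the α2 chain, had 239, 227 and 259 FPKM in knockout and 193, 251 and 355 FPKM in wild-type libraries. The knockout values of both lay inside the wild-type range. Their log2 changes were -0.081 (95% interval -0.56 to 0.39) and -0.098 (95% interval -0.59 to 0.40), and both were above 0 with the length and GC trend removed, at 0.32 and 0.35. The pair lie side by side on chromosome 10, on the same strand and 85161 bases apart.

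Col6a3 (ENSMUSG00000048126, chromosome 1, 90765923 to 90843971, minus strand), the long α3 chain, had 61.0, 73.7 and 114 FPKM in knockout and 129, 158 and 145 FPKM in wild-type libraries. All knockout libraries were lower, and the third came close to the first wild-type library. The means were 82.8 ± 27.5 FPKM in knockout and 144 ± 14.8 FPKM in wild-type libraries (SD, n = 3 each). Col6a3 fell by 0.84 on the log2 scale (SE 0.222, limma adjusted p = 0.0372), but did not pass after rescaling to TPM, nor with the length and GC trend removed, where it was at -0.11. The log2 ratio of Col6a3 to Col6a1 was -3.23, -2.82 and -2.50 in knockout and -1.95, -1.88 and -2.42 in wild-type libraries, so the groups were apart by a narrow gap. That of Col6a2 to Col6a1 was -1.26, -1.19 and -1.31 in knockout and -1.37, -1.21 and -1.12 in wild-type libraries and overlapped. These ratios, too, were chosen after their values were seen and have no test. The type VI share of the summed collagen level was 35.1 ± 1.15% in knockout and 36.6 ± 1.17% in wild-type libraries (SD, n = 3 each).

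**Figure D2:**
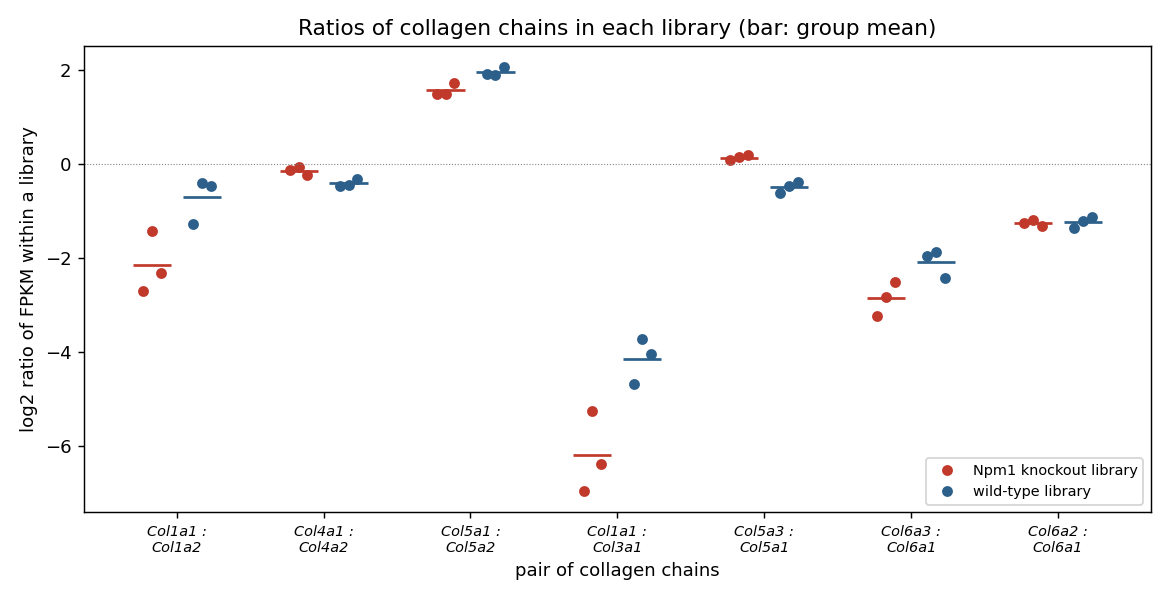
Log2 ratios of the FPKM of paired collagen chains within each library, with 1 point per library, knockout left of wild type, and a bar at each group mean. Col1a1 is lower against both Col1a2 and Col3a1 in all knockout libraries, and the Col6a2 to Col6a1 ratios of both groups lie between -1.37 and -1.12 and overlap.

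The multiplexins are basement membrane collagens that carry sugar chains. They were counted here among the other types, so the type IV class does not hold every basement membrane collagen. Col18a1 (ENSMUSG00000001435, chromosome 10, 77052178 to 77166548, minus strand), the precursor of endostatin, had 6.55, 9.94 and 8.65 FPKM in knockout and 15.2, 24.7 and 25.3 FPKM in wild-type libraries. All knockout libraries were well below all wild-type libraries. The means were 8.38 ± 1.71 FPKM in knockout and 21.7 ± 5.69 FPKM in wild-type libraries (SD, n = 3 each), a ratio of 0.386. Col18a1 fell by 1.26 on the log2 scale (SE 0.217, limma adjusted p = 0.0139), the smallest adjusted p among the collagen genes, and was at -0.50 with the trend removed, where it did not pass (limma adjusted p = 0.139). Col15a1, the other multiplexin, had 0.345, 1.40 and 0.981 FPKM in knockout and 1.24, 4.11 and 1.40 FPKM in wild-type libraries, with overlapping groups (log2 change -0.70, 95% interval -1.41 to 0.012, limma adjusted p = 0.157). It passed the filter on low values only through its wild-type mean of 2.25 FPKM, since its knockout mean was 0.910 FPKM.

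Collagens of the FACIT family sit on the surface of fibrils. Col16a1 was their most abundant member, at 94.5, 88.2 and 110 FPKM in knockout and 91.0, 101 and 123 FPKM in wild-type libraries. The groups overlapped and the log2 change of -0.098 (95% interval -0.48 to 0.28) did not pass (limma adjusted p = 0.710), while with the trend removed it was 0.65 and passed (limma adjusted p = 0.0444). Col9a3, a chain of the cartilage type IX collagen, had 1.45, 1.796 and 1.63 FPKM in knockout and 1.45, 1.34 and 1.76 FPKM in wild-type libraries, with a log2 change of 0.063 (95% interval -0.28 to 0.40). The other 7 members lay below the filter. Among them Col14a1, a chain of tendon and skin, was the collagen gene just outside the filter with a mean of 0.956 FPKM over all libraries, and Col27a1 the one just inside with 1.197 FPKM. Col14a1 had 0.664, 2.86 and 0.615 FPKM in knockout and 0.195, 0.918 and 0.483 FPKM in wild-type libraries, where the second library of each group stood out. Col12a1, found in dense connective tissue, had 57, 135 and 88 fragments in knockout and 208, 574 and 152 in wild-type libraries, all lower in knockout.

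Col7a1, the collagen of the anchoring fibrils that tie basement membrane to skin stroma, had 4.40, 6.48 and 7.95 FPKM in knockout and 9.82, 10.6 and 8.82 FPKM in wild-type libraries. All knockout libraries were lower by a small gap, and the log2 change of -0.59 (95% interval -1.02 to -0.16) did not pass (limma adjusted p = 0.0644). With the trend removed the sign turned (0.49, limma adjusted p = 0.0738). Col8a1, a short-chain collagen of vessel walls and stroma, had 7.89, 10.5 and 12.3 FPKM in knockout and 11.5, 7.83 and 7.82 FPKM in wild-type libraries, with overlapping groups and a log2 change of 0.16 (95% interval -0.28 to 0.60, limma adjusted p = 0.598).

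The 25 genes below the filter stayed at a mean of at most 0.956 FPKM. Col9a1, Col19a1 and Col26a1 were listed at 0 in every library. All 4 transmembrane collagens were in this set, and the highest of them was Col17a1, a hemidesmosome component, at 0.521 to 0.684 FPKM in knockout and 0.365 to 0.402 FPKM in wild-type libraries. Col6a5, an alternative long chain of type VI, had 62, 89 and 19 fragments in knockout and 4, 5 and 6 in wild-type libraries. Its knockout values were all higher, at 0.361, 0.536 and 0.108 FPKM against 0.0224, 0.0308 and 0.0392 FPKM in wild type. Its relatives Col6a4, with 0.652 to 0.925 FPKM in knockout and 0.587 to 1.09 FPKM in wild-type libraries, and Col6a6, with 14 fragments at most, overlapped. Col22a1, a FACIT chain of tissue junctions, also had non-overlapping groups, at 0.145 to 0.197 FPKM in knockout and 0.0756 to 0.107 FPKM in wild-type libraries. The FACIT chain Col20a1 had 7 to 13 fragments in knockout and 7 to 24 in wild-type libraries, Col28a1, a chain of nerve tissue, 25 to 43 in knockout and 17 to 35 in wild type, and Col8a2, the partner of Col8a1, 6 to 18 in knockout and 1 to 21 in wild type. The transmembrane Col23a1 had at most 7 fragments in a knockout library and at most 17 in a wild-type library. Col9a2, Col10a1, Col13a1 and Col25a1 had no more than 4 fragments in any library. None of the genes below the filter was tested.

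The log2 changes were then set beside gene length and base composition. Over all tested genes the change fell with gene length, from a median of 0.30 in the shortest of 10 equal bins, with a median length of 492 bases, to -0.22 in the longest bin, with a median length of 11485 bases. Over GC content the medians ran from 0.30 at 39.9% to -0.20 at 59.8%. The collagen genes sit at the long and GC-rich end. The 44 genes had a median gene length of 7542 bases, against 3422 bases for protein-coding genes, and the 19 tested genes had a median GC content of 57.7%, against 50.0% for all tested genes. Among the 19 genes themselves the relation was weak. Spearman's rho with the log2 change was 0.095 for gene length, -0.32 for the length of the longest transcript and -0.22 for GC content, against -0.41, -0.46 and -0.34 over all 11287 genes. These are correlations across genes, which share the same 6 libraries and are not independent replicates. Col27a1, Col1a2 and Col6a3, with gene lengths of 13022, 12426 and 11963 bases, had log2 changes of 0.20, -0.50 and -0.84. Col1a1, with 6563 bases and a GC content of 58.9%, lay at -1.88, and Col5a3, with 6809 bases and 61.6%, at 0.0016. The part of length and GC content in these changes was not tested.

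**Figure D3:**
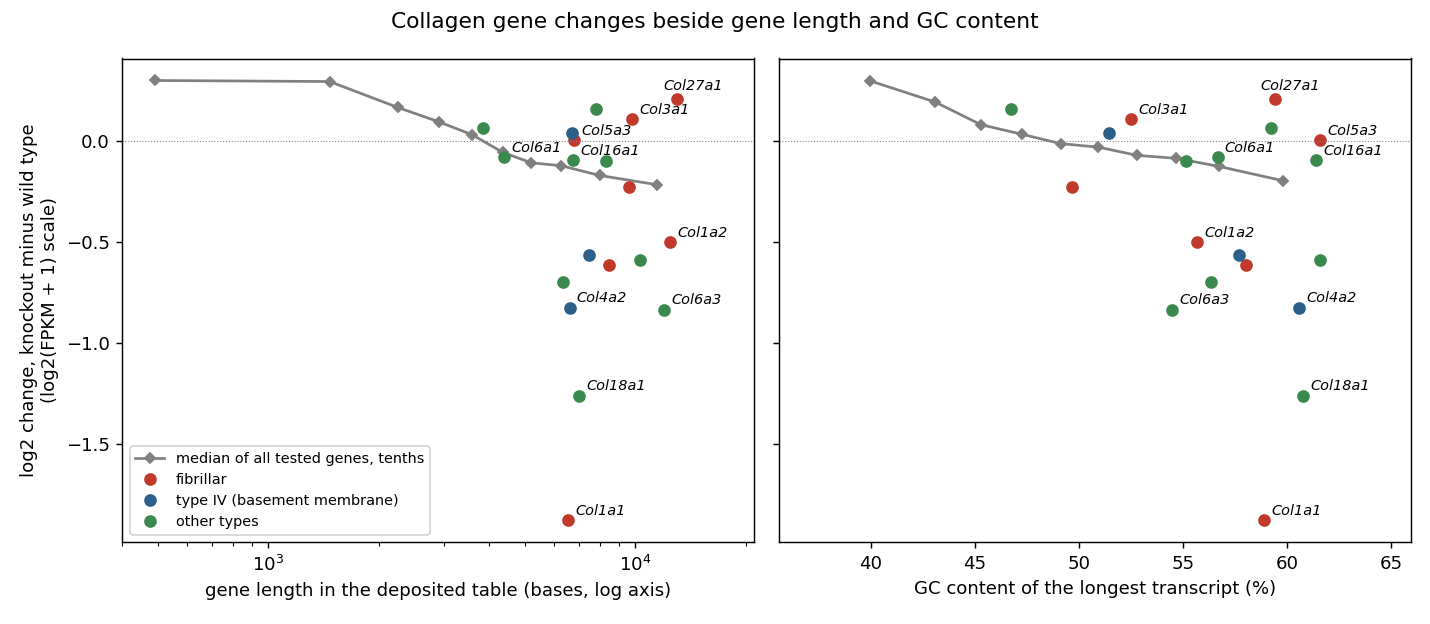
Log2 change of the 19 tested collagen genes, knockout minus wild type, against gene length on a log axis and against the GC content of the longest transcript, with the median of all tested genes in 10 bins of each property as a grey line. The collagen genes lie at the long and GC-rich end, with Col1a1 lowest at -1.88 and Col5a3 at 0.0016.

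With the length and GC trend taken out, the medians of the 3 classes were 0.22 for the 7 fibrillar, 0.15 for the 3 type IV and 0.32 for the 9 other chains tested, against 0.013 for all genes. Of the 19 genes 15 were then above 0 and 4 below, namely Col1a1, Col18a1, Col15a1 and Col6a3. Removing a trend with the deposited gene length alone left 3 collagen genes passing as lower, namely Col18a1, Col1a1 and Col4a2, and 0 as higher. Over all genes 904 then fell and 772 rose. The calls also changed when single libraries were left out, and so did those over all genes. Over all tested genes 19 rose and 64 fell without knockout replicate 1. Without wild-type replicate 3, 6 rose and 1 fell, against 667 and 937 with every library. Col1a1 and Col18a1 did not pass without knockout replicate 1 (adjusted over all genes in limma, where 0 collagen genes passed and 5 had an unadjusted p under 0.05) or without wild-type replicate 3 (0 passed and 7 had an unadjusted p under 0.05). Of the 6 limma fits that left out a library, Col4a2 passed in 2, those without knockout replicate 3 and without wild-type replicate 1, and Col6a3 in 1, that without knockout replicate 3. Over these fits the log2 change ran from -2.30 to -1.49 for Col1a1, from -1.49 to -1.11 for Col18a1, from -0.98 to -0.70 for Col4a2 and from -1.09 to -0.64 for Col6a3. With the length and GC trend removed, Col27a1, Col5a3 and Col16a1 all passed as higher without wild-type replicate 2. Only Col27a1 passed without knockout replicate 3, and 0 collagen genes passed when any other library was left out.

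**Figure D4:**
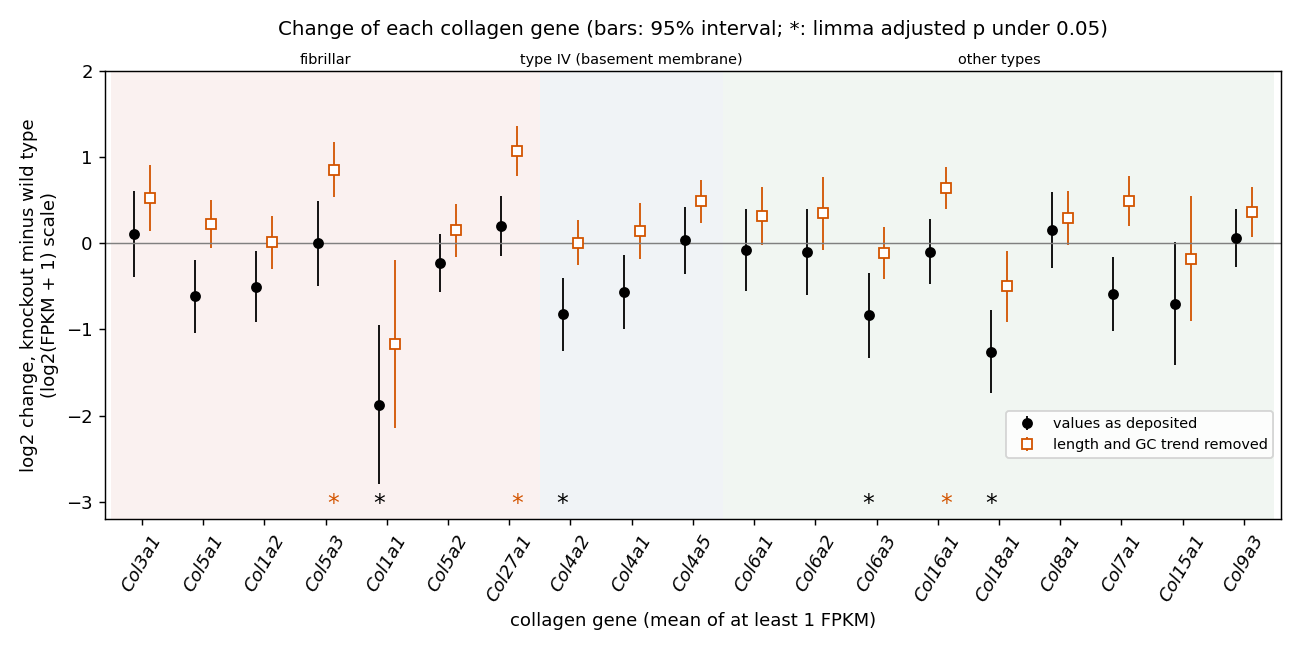
Log2 change of each tested collagen gene, knockout over wild type, of log2(FPKM + 1) values as deposited (filled points) and with the length and GC trend removed (open squares), with 95% intervals from limma and asterisks at an adjusted p under 0.05. Col1a1, Col4a2, Col6a3 and Col18a1 pass as lower with the deposited values, and Col5a3, Col27a1 and Col16a1 pass as higher with the trend removed.

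The genes that make, move and bind collagen were followed in fixed lists, whose counts stand beside 8.3% of all tested genes that fell and 5.91% that rose. Among genes within the length and GC ranges of the tested collagen genes 20.5% fell. Some list genes lie outside those ranges, such as P4ha3 with a gene length of 3135 bases and Sar1b with 1255 bases. Of 20 genes for chain modification and folding 18 were tested, 1 rose and 0 fell. P4ha3, a prolyl hydroxylase subunit, rose by 0.68 on the log2 scale (limma adjusted p = 0.0394), with 8.39 ± 2.09 FPKM in knockout and 4.82 ± 0.717 FPKM in wild-type libraries (SD, n = 3 each). The lysyl hydroxylases Plod1 (-0.51, limma adjusted p = 0.0524) and Plod2 (0.74, limma adjusted p = 0.0593) lay on opposite sides of 0 without passing. P4ha1, another prolyl hydroxylase subunit, did not pass either (0.34, limma adjusted p = 0.157). Of 11 genes for the export of procollagen 10 were tested and 0 passed in limma. The smallest p-values there were those of the coat GTPase Sar1b (0.52, limma adjusted p = 0.0578), the cargo receptor Mia2 (0.52, adjusted p = 0.0686) and the coat proteins Sec31a (-0.31, adjusted p = 0.180) and Sec13 (0.33, adjusted p = 0.203).

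Of 13 genes for propeptide cleavage and crosslinking 10 were tested, 0 rose and 2 fell, the lysyl oxidases Loxl2 and Loxl4, of a family that crosslinks collagen fibres. Loxl2 had 10.1, 11.1 and 13.3 FPKM in knockout and 17.3, 20.4 and 24.0 FPKM in wild-type libraries, and fell by 0.78 (limma adjusted p = 0.0201). Loxl4 had 9.55, 10.1 and 13.1 FPKM in knockout and 18.4, 17.4 and 17.2 FPKM in wild-type libraries, and fell by 0.66 (limma adjusted p = 0.0254). The groups of both were apart. The other tested members of that family, Lox (0.34), Loxl1 (0.14) and Loxl3 (-0.13), did not pass (limma adjusted p = 0.305, 0.657 and 0.598). The propeptidase Adamts14 (-0.41, limma adjusted p = 0.0953) and the enhancer of cleavage Pcolce2 (0.35, adjusted p = 0.120) did not pass.

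Of 11 collagen receptors 5 were tested, 0 rose and 1 fell. Ddr1, a receptor tyrosine kinase that binds collagen, had 13.2, 15.0 and 17.6 FPKM in knockout and 30.8, 27.3 and 41.2 FPKM in wild-type libraries, well apart, and fell by 1.05 (limma adjusted p = 0.0141). The endocytic receptor Mrc2 (-0.48, limma adjusted p = 0.0893), Cd44 (-0.34, adjusted p = 0.194) and Ddr2 (-0.11, adjusted p = 0.760) did not pass. Of 13 genes for collagen degradation 9 were tested, 1 rose and 1 fell. Ctsl, a lysosomal protease, rose by 0.51 (limma adjusted p = 0.0463), and the membrane collagenase Mmp14 fell by 0.52 (limma adjusted p = 0.0487). The inhibitor Timp2 (-0.42, adjusted p = 0.141) and the protease Ctsk (0.55, adjusted p = 0.260) did not pass in limma. None of the genes named from these 5 lists passed in limma with the length and GC trend removed, where the values of those that had passed were 0.72 for P4ha3, -0.42 for Loxl2, -0.32 for Loxl4, -0.58 for Ddr1, 0.60 for Ctsl and -0.33 for Mmp14, with adjusted p-values from 0.0611 to 0.162.

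Some markers of stromal cells moved with the groups. Of 14 fibroblast markers that are not collagens 13 were tested, 5 rose (Dpt, Pi16, Dcn, Clec3b and Postn) and 0 fell, with Dcn, which binds collagen fibrils, at 299, 145 and 163 FPKM in knockout and 89.2, 68.4 and 78.0 FPKM in wild-type libraries. Of the 8 tested markers that did not pass, Pdgfrb (-0.59, limma adjusted p = 0.0516) and Fbln2 (-0.54, limma adjusted p = 0.0668) were lower in every knockout library than in any wild-type library. With the trend removed Dpt and Pi16 passed as higher, where 1.03% of all genes did. Of 10 pericyte and smooth muscle markers 4 were tested and 3 fell (Cspg4, Notch3 and Mcam), where 8.3% of all tested genes fell and 5.91% rose. The list summed to 32.0 to 38.6 FPKM in knockout and 51.4 to 67.5 FPKM in wild-type libraries, with a median level of 0.437 FPKM. Rgs5, Kcnj8, Abcc9, Tagln, Myh11 and Des lay below the filter, at no more than 0.740 FPKM in any library. The fourth tested marker, Acta2, did not pass (-0.26, limma adjusted p = 0.205). None of the 4 tested markers passed in limma with the trend removed, where 1.37% of all genes fell. No endothelial marker reached the filter, and the 10 of them summed to 2.27 to 3.29 FPKM in knockout and 3.24 to 7.83 FPKM in wild-type libraries. The 12 leukocyte markers, of which 3 were listed at 0 in all libraries and 2 were tested without passing, summed to 4.17 to 5.04 FPKM in knockout and 2.69 to 7.71 FPKM in wild-type libraries. Red blood cell genes summed to 12.8 to 81.2 FPKM in knockout and 1.46 to 22.5 FPKM in wild-type libraries, with 3 of 5 tested and 0 passing in limma. Of 7 cartilage and bone markers 2 were tested, Sox9 and Runx2, and neither passed. The list summed to 65.1 to 116 FPKM in knockout and 91.6 to 147 FPKM in wild-type libraries. Most of this was Sox9, at 62.1 to 112 FPKM in knockout and 88.1 to 142 FPKM in wild-type libraries. Acan, Sp7, Bglap, Ibsp and Alpl stayed at no more than 0.0924 FPKM in any library. The part of these markers in the collagen values was not tested.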

How the data were processed

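The authors deposited FPKM per gene and library, per the file headers, in 1 table for 6 libraries. The submitters' processing notes name CASAVA 1.8, HISAT2 2.0.5, featureCounts 1.5.0-p3, DESeq2 1.20.0 and the build GRCm38 (mm10), without roles. The sources used here name no filter, strand setting or treatment of fragments that match several genes. FPKM times gene length came out as whole fragments for 100% of values within a tolerance of 0.001. Gene length equalled the exon length of GENCODE vM21 for 97.9% of genes and for 42 of the 44 collagen genes.

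Values were tested as log2(FPKM + 1), which understates the change of low genes, with limma 3.58.1 in R 4.3.3 (two-sided, group as the only term, variance moderated along the mean level) for 11287 genes averaging 1 FPKM or more. P-values were Benjamini-Hochberg adjusted over these genes at a threshold of 0.05. The length and GC trend was a smooth surface (mgcv 1.9.3) over the length and GC content of each gene's longest transcript, fitted in each library over 11269 genes. That transcript need not be the expressed one. The procedure was run on simulated data with a single dispersion and, for the trend removal, an added trend over transcript length only. No GC trend was added there, so those data do not show how a GC trend is removed. Tables were handled in Python 3.11.15 with pandas 2.3.3, and exact permutation tests went through every split of the libraries in Python. Spearman correlations and the adjustment over the chain ratios used scipy 1.17.1. Sequences are RefSeq's, from a table on GRCm38.p6 that does not cover every gene, matched by symbol.

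The collagen genes and all lists were chosen with earlier results of these data known. Every tested collagen gene is named, those below the filter by their range, up to 4 genes with the smallest p from each list of collagen processing, and Npm1. Members of marker lists are named to say which make up a count or a sum. These, like the examples below the filter, were chosen after their values were seen. Alternatives were another pseudocount, other filters, scalings, variance models and weights, a replicate block, limma-voom on the recovered fragments, and leaving out each library.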

Additional observations from a re-analysis of the deposited data

How the results depend on the processing

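The depth and the 3 libraries a group limit what could be seen, and a change that did not pass may still be present. The collagen calls changed with the treatment of length and base composition, with array weights and with single libraries, and the cause was not tested. With the length and GC trend removed 0 collagen genes were lower and 3 higher, and Npm1 stood at -0.7631 and passed as lower (limma adjusted p = 0.0445). Without knockout replicate 1 as well, Npm1 did not pass (limma adjusted p = 0.158). With the trend removed the medians were 0.2246 for fibrillar, 0.1472 for type IV and 0.3192 for other chains. There Col1a2 (0.0149), Col4a1 (0.1472), Col4a2 (0.0102), Col5a1 (0.2246), Col5a2 (0.1501), Col6a1 (0.3192), Col6a2 (0.3523), Col7a1 (0.4939), Col16a1 (0.6455) and the log2 ratio of Col5a1 to Col5a2 (0.0745) changed sign. With the trend of gene length alone the fibrillar median was -0.0141, and Col6a2 (0.1003) and Col16a1 (0.0697) changed sign.

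With no filter limma called 0 genes of 24310, with 4543 at an unadjusted p under 0.05, 12 of them collagen genes, and the type IV median was -0.0035 over more members. With array weights 2690 genes rose and 2764 fell, 11 collagen genes were lower, the median of the other chains was -0.3781, and Col3a1 (-0.1248), Col5a3 (-0.2743) and Col4a5 (-0.0823) changed sign. Quantile normalization gave a median of -0.3515 for the other chains, with Col3a1 at -0.1302 and Col5a3 at -0.0786. Rescaling to TPM moved the median of all genes to -0.080, against 0.024 before, and put Col3a1 at -0.0092, Col5a3 at -0.1122, Col4a5 at -0.0531 and Col9a3 at -0.0063. The pseudocount of 0.1, the minimum of 5 FPKM, the plain variance model and limma-voom called 4, 6, 4 and 4 collagen genes lower and 0 higher. Over all genes they called 918, 879, 910 and 900 lower, and 641, 667, 649 and 678 higher.

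The titles number the libraries without saying whether equal numbers were paired. The deviations of same-numbered libraries from their group means correlated at -0.1853, 0.2677 and -0.3684, and those of differently numbered ones at -0.3951 to 0.4211. Such deviations sum to 0 within a group, so these values cannot exclude a pairing. With the replicate number as a block 3 collagen genes were lower and 0 higher, and over all genes 313 rose and 509 fell. The block with the gene length trend removed called 4 lower, where 715 of all genes fell and 609 rose. It gave the same fibrillar median of -0.0141 and the values 0.1003 and 0.0697 for Col6a2 and Col16a1. The block with the length and GC trend removed, an alternative chosen after seeing the data, called 0 lower and 0 higher in limma. Of the collagen genes 9 had an unadjusted p under 0.05. Over all genes that fit called 6 lower and 3 higher, and its log2 changes were the same as without the block.

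Leaving out each library in turn, with and without the length and GC trend, gave 0 to 7 collagen genes lower and 0 to 3 higher. Over all genes these fits called 0 to 1466 lower and 0 to 1338 higher. Npm1 ran from -0.8701 to -0.1839, the fibrillar median from -0.3179 to 0.3444, the type IV median from -0.7277 to 0.2996 and that of the other chains from -0.2655 to 0.4027. In the same fits Col3a1 ran from -0.06 to 0.6754, Col6a1 from -0.2239 to 0.4632, Col6a2 from -0.3071 to 0.564, Col16a1 from -0.1939 to 0.716, Col5a1 from -0.7759 to 0.3444, Col1a2 from -0.6475 to 0.0885, Col5a3 from -0.1803 to 0.9904, Col4a2 from -0.9826 to 0.1005, Col4a1 from -0.7277 to 0.2996, Col5a2 from -0.3179 to 0.2486, Col7a1 from -0.7566 to 0.5426, Col4a5 from -0.121 to 0.5451 and Col15a1 from -0.9142 to 0.1895.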
